A study of Mus musculus with 15 samples.

Results

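The NR4A family of orphan nuclear receptors has 3 members in the mouse, *Nr4a1* (Nur77), *Nr4a2* (Nurr1) and *Nr4a3* (Nor1), and all 3 were followed through the 15 RNA sequencing libraries of a study of PHF6, a chromatin-associated protein mutated in Börjeson-Forssman-Lehmann syndrome. The family was taken up because *Nr4a2* was higher in *Phf6*-deleted cortical neurons; that is, it was selected on its counts in the deleted and control cultures, and these values are given as a description without a test. *Nr4a1* and *Nr4a3* were added by name as its paralogs, to ask whether they share the rise. The 3 genes are 3 of 23128 genes kept from the deposited count table, and all 3 passed the filter on low counts in each tissue (cortex, 14746 genes tested; neurons, 13905).

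The libraries came from C57BL/6 foetuses that were hemizygous for the X-linked *Phf6* gene. The E15.5 cerebral cortex was represented by 3 Phf6 +/Y control and 5 Phf6 -/Y libraries from litters 1, 2 and 3, in which *Phf6* was deleted in the germline and therefore in every cell type. Primary cortical neurons were cultured from E16.5 cortex, as 3 Phf6 +/Y NesCre T/+ control and 4 Phf6 lox/Y NesCre T/+ libraries from litters 4 to 7. All neuron libraries, controls included, carried the Nes-cre transgene, in which nestin regulatory sequences drive Cre recombinase in neural progenitors and so delete the floxed exons in their progeny. Litters 1 and 2 each held 1 control and 2 deleted cortices, litters 3 to 6 held 1 library of each genotype, and litter 7 held 1 deleted culture without a control. Total counts ranged from 16858007 to 31157700 per library. Each library was treated as 1 sample, and p-values measure only the spread between these libraries.

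The labels were checked against their defining genes. *Phf6* itself lay between 158 and 200 CPM (read counts relative to library size, scaled within a tissue) in control cortices and between 44.7 and 57.9 CPM in Phf6 -/Y cortices. In the neurons it lay between 215 and 245 CPM in controls and between 56.9 and 80.8 CPM in deleted cultures. The deletion removes only the floxed exons, on which the paper reports an absence of reads. These CPM count the whole gene, so reads on its other exons are included. The summed level of 6 pan-neuronal markers was 7232 to 8350 CPM in the cultures and 4741 to 5974 CPM in the cortices, and 7 endothelial markers summed to 4.51 to 9.07 CPM and to 160 to 348 CPM. Replicate 1 of the Phf6 -/Y cortices stood apart, with 8 cortical excitatory neuron markers at a sum of 1359 CPM against 2252 to 2479 CPM in the other 7 cortices, and the *Nr4a3* differences fitted with it are given with and without it. In bulk RNA, fewer cells of a type and less RNA per cell cannot be told apart.

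NR4A receptors bind DNA as monomers at the NBRE, an octamer that carries a nuclear receptor recognition motif, and their ligand-binding domain is folded in an active shape without a classical ligand, which makes their amount a main point of control. All are immediate early genes in neurons: calcium entry and cyclic AMP switch them on within minutes through the transcription factors CREB and MEF2. *Nr4a2* is known above all for its role in the making and upkeep of midbrain dopaminergic neurons, and in the cortex it marks subplate and claustrum neurons. *Nr4a1* and *Nr4a2*, unlike *Nr4a3*, can pair with the retinoid X receptors.

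On GRCm38, *Nr4a1* (Entrez gene 15370) lies on chromosome 15 from 101253902 to 101274795, *Nr4a2* (18227) on chromosome 2 from 57106830 to 57124003 and *Nr4a3* (18124) on chromosome 4 from 48045078 to 48086447. The span of *Nr4a2* overlaps 1 predicted gene, LOC105244150, that is not among the counted genes, and no annotated gene overlaps the other 2. The 250 bases before 1 RefSeq (GRCm38.p6) start of each gene are shown because all 3 carry the same number of CREB recognition cores. That number is therefore a description, and whether these cores take part in the induction of the family was not tested. Capitals mark the core TGACG or its reverse complement CGTCA, and each sequence reads 5′ to 3′ in the direction of its gene: *Nr4a1* from chr15:101266596-101266845 (plus strand), *Nr4a2* from chr2:57124004-57124253 (minus strand) and *Nr4a3* from chr4:48045055-48045304 (plus strand). The *Nr4a1* window lies wholly inside the annotated span of that gene and the *Nr4a3* window partly so, because each of these genes also has an earlier annotated start.

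Nr4a1: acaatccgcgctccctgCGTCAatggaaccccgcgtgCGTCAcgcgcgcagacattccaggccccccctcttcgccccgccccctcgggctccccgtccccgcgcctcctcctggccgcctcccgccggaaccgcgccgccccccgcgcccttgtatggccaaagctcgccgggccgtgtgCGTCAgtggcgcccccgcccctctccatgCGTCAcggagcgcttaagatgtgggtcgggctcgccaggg
Nr4a2: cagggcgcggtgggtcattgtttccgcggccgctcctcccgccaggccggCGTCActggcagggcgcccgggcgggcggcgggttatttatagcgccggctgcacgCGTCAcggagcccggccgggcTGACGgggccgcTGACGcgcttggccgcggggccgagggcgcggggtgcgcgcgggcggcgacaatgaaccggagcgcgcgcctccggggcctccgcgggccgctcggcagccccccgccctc
Nr4a3: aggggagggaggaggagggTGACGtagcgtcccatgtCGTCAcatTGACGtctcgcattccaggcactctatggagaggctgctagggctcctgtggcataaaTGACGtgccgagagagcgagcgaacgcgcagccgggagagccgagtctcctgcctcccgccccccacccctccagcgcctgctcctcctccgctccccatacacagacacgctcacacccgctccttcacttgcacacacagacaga

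Each window held 4 cores on either strand, none overlapping another. Of 32851 RefSeq promoter windows of the same length, 17.8% held at least 1 core, 0.688% at least 3 and 0.137% at least 4. The full palindromic site TGACGTCA was in none of the 3 windows and in 1.55% of all windows. The NBRE, AAAGGTCA, was also in none of them and in 1.34% of all windows. On either strand, the letters TATAA stood once in the *Nr4a2* window, in neither of the others and in 22.8% of all. The *Nr4a2* match was on the opposite strand and reads TTATA in the sequence shown. The windows were rich in G and C (74.4% in *Nr4a1*, 80.0% in *Nr4a2*, 63.6% in *Nr4a3*), the shares over all windows were not matched for that, and a match of letters does not show a bound site.

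In *Phf6*-deleted cortical neurons, *Nr4a2* and *Nr4a3* both stood above every control culture, as did 3.68% of the genes tested there. *Nr4a1* overlapped between the genotypes. *Nr4a2*, chosen because it was higher in these cultures, had the largest fitted difference, at 1.82-fold, which is a description. *Nr4a3* rose by 39.6%. For *Nr4a1* no change was detectable.

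*Nr4a2*, the member that chose the family, lay at 16.0, 22.9 and 27.5 CPM in the control cultures of litters 4, 5 and 6. It lay at 31.2, 44.2 and 44.7 CPM in the deleted cultures of the same litters and at 36.6 CPM in the deleted culture of litter 7. The lowest deleted culture was thus above the highest control, and litter 4 was the lowest within each genotype. Within litters, the log2 ratio of deleted over control was 0.96, 0.95 and 0.70. The fit with litter as a term gave a log2 fold change of 0.87 (SE 0.09), to be read as a description.

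*Nr4a3*, the most abundant member in these cultures, lay at 54.4, 57.8 and 75.5 CPM in the controls of litters 4, 5 and 6. In the deleted cultures it lay at 81.3, 88.2 and 90.5 CPM in the same litters and at 75.7 CPM in litter 7. Its groups did not overlap either, but the litter 7 culture was level with the control of litter 6. The log2 ratios within litters were 0.58, 0.61 and 0.26, so *Nr4a3*, like *Nr4a2*, differed least in litter 6. The fitted log2 fold change was 0.48 (SE 0.08, 95% interval 0.31 to 0.65, FDR = 0.0148, Benjamini-Hochberg adjusted over all genes, in edgeR's quasi-likelihood test). At this threshold 0.273% of genes were called in the neurons in either direction and 0.194% were called higher.

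This call depended on the litter term and on the libraries fitted. When any 1 library was left out, *Nr4a3* stayed between 0.42 and 0.59 on the log2 scale and passed the threshold in 5 of 7 fits. These are not 7 separate checks, because the genotype difference comes from litters 4, 5 and 6, which hold both genotypes. Leaving out either library of such a litter removes its pair. Without the litter 7 culture the log2 fold change was 0.48, as in the main fit. Without control replicate 2 the FDR of edgeR's quasi-likelihood test was 0.185, and without deleted replicate 3 it was 0.131, both libraries being the litter 5 pair. The log2 fold change was 0.42 in both fits, close to the 0.43 without either library of litter 4, where the call held. These fits also differed over the whole table, with 12 genes called higher without control replicate 2 and 70 without control replicate 1. The lost calls therefore do not single out litter 5 for *Nr4a3*. Without the litter term the log2 fold change was 0.42 with FDR = 0.555 from the same test, although the unadjusted p was 0.00224.

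*Nr4a1*, the least abundant member, lay at 7.25, 12.2 and 12.3 CPM in the controls of litters 4, 5 and 6. It lay at 10.9, 13.7 and 11.3 CPM in the deleted cultures of those litters and at 10.8 CPM in that of litter 7. The groups overlapped, and the control of litter 4 was the only control below all 4 deleted cultures. The log2 ratios within litters were 0.59, 0.16 and -0.11, of mixed sign. The fitted log2 fold change was 0.21 (SE 0.16, 95% interval -0.12 to 0.54, FDR = 0.708 from edgeR's quasi-likelihood test), an interval that still allows a rise of the size fitted for *Nr4a3*. Whether the members differ from each other in their response was not tested.

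The 3 members had the same lowest control culture, that of litter 4, which was the lowest of all 7 cultures for each of them. Genes for which every deleted culture exceeded every control made up 3.68% of those tested in the neurons, and genes for which every deleted culture with a control of its litter exceeded that control made up 15.7%. *Nr4a2* and *Nr4a3* met both conditions and *Nr4a1* met neither. In log2 CPM over the 7 cultures, the Pearson correlation was 0.94 between *Nr4a2* and *Nr4a3*, 0.70 between *Nr4a1* and *Nr4a2* and 0.61 between *Nr4a1* and *Nr4a3*. *Nr4a3* ranked 43 of 13904 genes by its correlation with *Nr4a2*. These values describe libraries that share genotype, litter and culture, and carry no test.

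**Figure D1:**
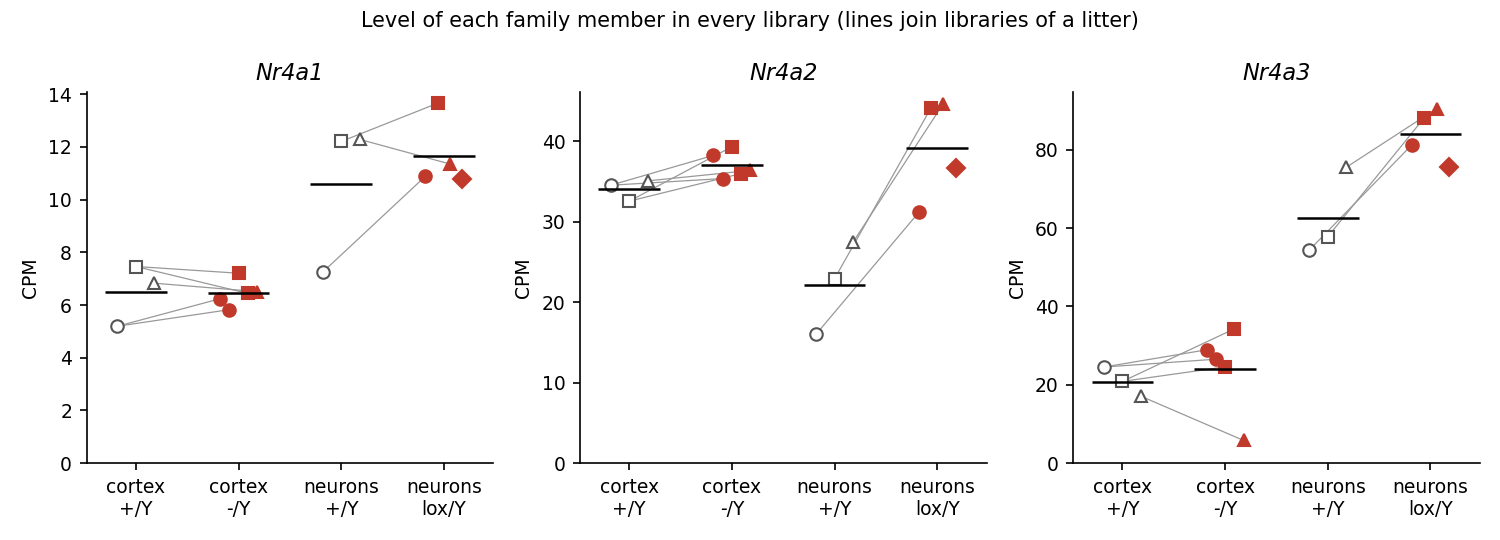
The CPM of each member (vertical axis, a linear scale from 0 that differs between panels) is plotted for every library in the 4 groups, with open symbols for controls, filled symbols for *Phf6*-deleted libraries, 1 symbol shape per litter within a tissue (diamond, litter 7) and a line at each group mean. Lines between groups join libraries of 1 litter: in the neurons all 3 lines of *Nr4a2* and *Nr4a3* climb and those of *Nr4a1* do not all climb, and in the cortex Phf6 -/Y replicate 1 lies at 5.80 CPM for *Nr4a3*.

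In the E15.5 cortex none of the 3 members changed at the threshold, where 0.387% of genes were called in either direction. *Nr4a2* lay slightly above the controls in each deleted library, without passing the test. *Nr4a3* varied most between libraries.

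*Nr4a2* lay at 34.6, 32.6 and 35.1 CPM in the control cortices of litters 1, 2 and 3. In the Phf6 -/Y cortices it lay at 38.3 and 35.4 CPM in litter 1, at 39.3 and 36.0 CPM in litter 2 and at 36.4 CPM in litter 3. All 5 deleted cortices were above all 3 controls, a pattern that 2.35% of tested genes had, and each was above the control of its litter, as in 7.95% of genes. The log2 ratios within litters ran from 0.03 to 0.27. The fitted log2 fold change was 0.12 (SE 0.08, 95% interval -0.06 to 0.31, FDR = 0.655 from edgeR's quasi-likelihood test).

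*Nr4a3* lay at 24.5, 20.9 and 17.1 CPM in the control cortices of litters 1, 2 and 3. The Phf6 -/Y cortices had 28.9 and 26.5 CPM in litter 1, 24.6 and 34.3 CPM in litter 2 and 5.80 CPM (131 reads) in litter 3. That last value is replicate 1, the one low in excitatory neuron markers, and it alone was below the controls. The log2 ratios were between 0.11 and 0.72 in litters 1 and 2 and -1.56 in litter 3. The fitted log2 fold change was -0.13 (SE 0.41, 95% interval -1.20 to 0.94, FDR = 0.953 from edgeR's quasi-likelihood test). Without Phf6 -/Y replicate 1 the sign turned, to a log2 fold change of 0.34 with FDR = 0.558, and without the control of that litter, which leaves replicate 1 without a partner, it was also 0.34 with FDR = 0.564 in the same test.

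*Nr4a1* lay at 5.20, 7.46 and 6.83 CPM in the control cortices of litters 1, 2 and 3. It lay at 6.24 and 5.82 CPM, at 7.21 and 6.44 CPM and at 6.51 CPM in the deleted cortices of those litters. All deleted values fell inside the range of the controls. The fitted log2 fold change was 0.01 (SE 0.17, 95% interval -0.35 to 0.37, FDR = 0.994 from edgeR's quasi-likelihood test). Across the 8 cortices the Pearson correlation of *Nr4a1* and *Nr4a2* in log2 CPM was 0.05.

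**Figure D2:**
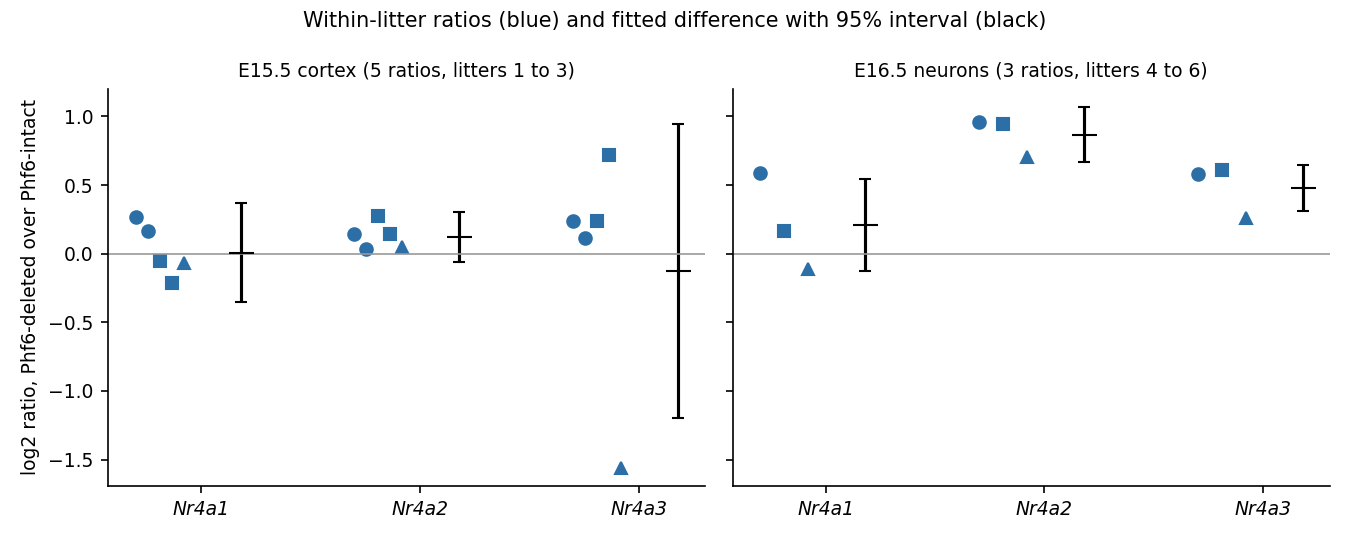
Log2 ratios of each *Phf6*-deleted library over the control of its litter (blue, vertical axis; circles, squares and triangles are litters 1, 2 and 3 in the cortex and 4, 5 and 6 in the neurons) beside the fitted log2 fold change with its 95% interval (black). In the neurons the 3 ratios of *Nr4a2* run from 0.70 to 0.96 and those of *Nr4a3* from 0.26 to 0.61, while the cortex ratios of *Nr4a3* spread from -1.56 to 0.72. The black interval of *Nr4a2* in the neurons makes no allowance for its choice on these values.

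The difference between the genotype effects of the tissues was tested in 1 fit over all 15 libraries, in which 0.0133% of genes were called. For *Nr4a3* the effect in neurons minus that in cortex was 0.58 on the log2 scale (SE 0.49, 95% interval -0.60 to 1.75, FDR = 0.955 from edgeR's quasi-likelihood test). It ranged from 0.14 to 0.96 over fits that each lacked 1 library, and it was 0.14 (SE 0.17) without Phf6 -/Y replicate 1 and also without the control of that litter. For *Nr4a1* it was 0.20 (SE 0.22, 95% interval -0.27 to 0.67, FDR = 0.957 from the same test). For *Nr4a2*, described without a test because its neuron values chose the family, it was 0.74 (SE 0.12), and no difference between tissues is claimed from it. The rise of *Nr4a3* in neurons was therefore not shown to differ from its value in the cortex, where the interval is wide.

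The members were compared with each other and between tissues as RPKM, read counts relative to counted length and library size, scaled over all 15 libraries. The counted length was 2477 bases for *Nr4a1* and 3347 bases for *Nr4a2*, close to their longest GENCODE transcripts (2553 and 3568 bases). For *Nr4a3* it was 1884 bases against a longest transcript of 5720 bases, so much of that transcript lies outside the counted bases, and the RPKM of *Nr4a3* describes the counted bases only.

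In control cortices, *Nr4a3* at 10.5 ± 1.91 RPKM (SD, n = 3) and *Nr4a2* at 9.67 ± 0.41 RPKM lay within their spread of each other, above *Nr4a1* at 2.49 ± 0.44 RPKM. The 3 shares of the summed family RPKM were 46.1% for *Nr4a3*, 42.8% for *Nr4a2* and 11.1% for *Nr4a1*. In Phf6 -/Y cortices *Nr4a3* was at 12.2 ± 5.50 RPKM (SD, n = 5; 2.92 RPKM in replicate 1 and 12.5 to 17.5 RPKM in the others), *Nr4a2* at 10.6 ± 0.46 RPKM and *Nr4a1* at 2.48 ± 0.20 RPKM, the same order.

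In the cultures *Nr4a3* dominated. Control neurons had *Nr4a3* at 35.1 ± 6.35 RPKM (SD, n = 3), *Nr4a2* at 7.00 ± 1.82 RPKM and *Nr4a1* at 4.52 ± 1.23 RPKM, or 75.5%, 14.9% and 9.64% of the family sum. Deleted neurons had *Nr4a3* at 47.1 ± 3.78 RPKM (SD, n = 4), *Nr4a2* at 12.4 ± 2.03 RPKM and *Nr4a1* at 4.98 ± 0.56 RPKM, or 73.1%, 19.1% and 7.74% of it. The family sum ran from 38.7 to 56.3 RPKM in control cultures and from 58.5 to 69.9 RPKM in deleted cultures, without overlap. That sum includes *Nr4a2*, which was chosen on these cultures, and is mostly *Nr4a3*, so it is not a separate result. The ratio of *Nr4a3* to *Nr4a2* was 0.865 to 1.26 in control cortices, 4.48 to 6.03 in control neurons and 3.55 to 4.63 in deleted neurons, where 1 culture reached into the range of the controls.

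**Figure D3:**
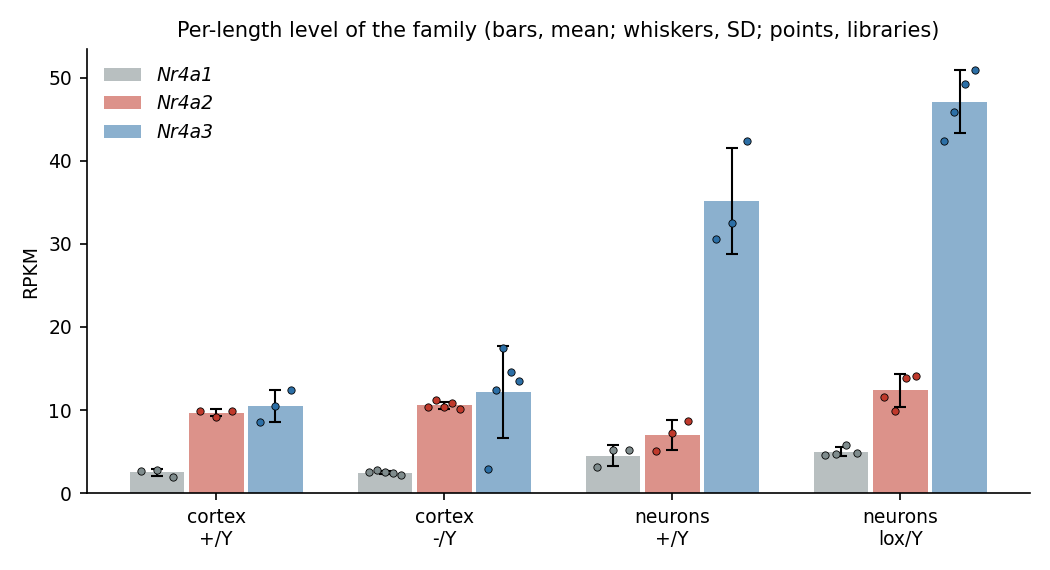
RPKM of the 3 members (vertical axis, linear from 0) in the 4 groups, with bars for the mean, whiskers for the SD and points for libraries. *Nr4a3* rises from about the level of *Nr4a2* in the cortex to 35.1 and 47.1 RPKM in the cultures, and the cortex -/Y point far below its group is replicate 1 at 2.92 RPKM.

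Between tissues, *Nr4a3* and *Nr4a1* were higher in the cultures in both genotypes. Stage, dissociation and culture, litter and the Nes-cre transgene all differ between the tissues and cannot be told apart. Among *Phf6*-intact libraries *Nr4a3* was 3.34-fold higher in neurons (log2 fold change 1.74, SE 0.16, FDR = 4.91e-06 from edgeR's quasi-likelihood test), where 24.7% of genes were called higher and 26.4% lower. *Nr4a1* was 1.81-fold higher (log2 fold change 0.85, SE 0.23, FDR = 0.00721 from the same test). Among *Phf6*-deleted libraries, which share no sample with the first set, *Nr4a3* was 3.84-fold higher (log2 fold change 1.94, SE 0.38, FDR = 0.00210 from edgeR's quasi-likelihood test) and *Nr4a1* was 2.00-fold higher (log2 fold change 1.00, SE 0.13, FDR = 2.17e-05). Without Phf6 -/Y cortex replicate 1 the log2 fold change of *Nr4a3* was 1.69 (SE 0.10). In that set 28% of genes were called higher and 31.1% lower, so calls of this kind were common.

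*Nr4a2* did not share that pattern. Its neuron values chose the family, so its differences between tissues are given without a test: the log2 fold change of neurons over cortex was -0.47 (SE 0.17) among intact libraries and 0.22 (SE 0.10) among deleted ones. All 3 control cultures, at 5.06 to 8.68 RPKM, were below all 3 control cortices, at 9.20 to 9.95 RPKM. How many genes separate in this way was not counted, and 51.1% of genes were called between these tissues in either direction. The deleted cultures, at 9.89 to 14.1 RPKM, overlapped the deleted cortices, at 10.1 to 11.2 RPKM. In order of mean RPKM *Nr4a2* was thus lowest in control neurons, then control cortex, deleted cortex and deleted neurons, the last pair differing by less than the SD of the cultures.

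The genes around the family were described from lists of partners, co-regulated genes, midbrain dopaminergic genes and subplate and claustrum markers. Of 24 partners and upstream regulators of the receptors, all tested in both tissues, 1 was called in the neurons and 0 in the cortex. The gene called was *Mef2c*, a MEF2 transcription factor of cortical neurons and a known activator of NR4A genes, with a log2 fold change of 0.36 (SE 0.07, FDR = 0.0379 from edgeR's quasi-likelihood test). Its level was 355 to 515 CPM in control and 446 to 564 CPM in deleted cultures, so the groups overlapped and the difference lay within litters. The median log2 fold change of the list was 0.04 in the neurons and 0.003 in the cortex, beside 0.001 and -0.002 over all genes.

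Activity-regulated transcription factors, the class of immediate early genes such as *Fos* and *Egr1* to which the family belongs, were described next. In the neurons 18 of 20 were tested, 0 were called and 16 had a positive log2 fold change, with a list median of 0.30. In the cortex 17 were tested, 0 were called and 3 were positive, with a median of -0.16. By unadjusted p the leading member in the neurons was *Fosl2*, an AP-1 factor, at a log2 fold change of 0.37 (SE 0.08) with FDR = 0.0878 from edgeR's quasi-likelihood test, and *Npas4* had 0.97 (SE 0.27) with FDR = 0.173; these names were picked after their values were seen. The summed CPM of the list was 789 to 890 in control and 859 to 1109 in deleted cultures, the highest in the litter 7 culture. In litters 4, 5 and 6 it went from 833 to 859, from 890 to 950 and from 789 to 887.

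Of 19 tested genes on a list of other activity-regulated genes, *Vgf*, a secreted neuropeptide precursor, was the only one called in the neurons and 0 were called in the cortex. *Vgf* was at most at 24.7 CPM in control cultures and lay at 26.7 to 43.2 CPM in deleted cultures, with a log2 fold change of 0.70 (SE 0.09, FDR = 0.00395 from edgeR's quasi-likelihood test). In this list 16 of 19 log2 fold changes were positive in the neurons, with a median of 0.12, and 11 of 19 in the cortex, with a median of 0.03.

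**Figure D4:**
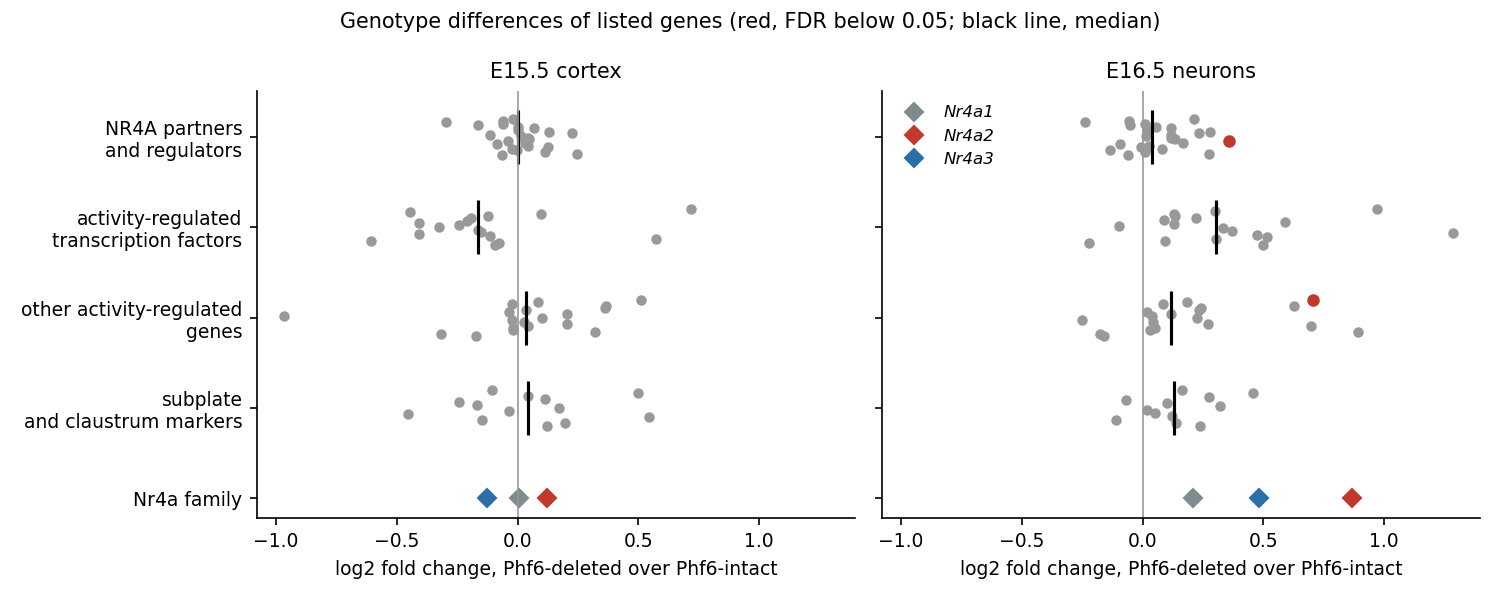
Log2 fold changes of *Phf6*-deleted over intact libraries (horizontal axis) for the tested genes of 4 lists and the 3 family members (diamonds) in the cortex (left) and the neurons (right). Red points passed an FDR of 0.05 (*Mef2c* and *Vgf*, neurons) and black lines are list medians, which for activity-regulated transcription factors are -0.16 (cortex) and 0.30 (neurons).

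The genes listed for midbrain dopaminergic neurons included regulators of that lineage as well as targets of *Nr4a2*, and most did not pass the filter on low counts. Of 14 such genes, 5 passed the filter in the cortex and 3 in the neurons, and 0 were called in either. All of those tested had a positive genotype difference, with a median log2 fold change of 0.42 (cortex) and 0.78 (neurons). The neuron median rests on 3 genes, which ran from 0.05 to 0.87. The whole list summed to 15.9 to 23.0 CPM in control and 14.3 to 29.1 CPM in deleted cultures, so the groups overlapped. In litters 4, 5 and 6 it went from 23.0 to 29.1, from 16.3 to 14.3 and from 15.9 to 19.5 CPM. Most of it was *Slc18a2*, at a mean of 15.3 CPM in control and 16.2 CPM in deleted cultures. *Pitx3*, *Foxa1* and *Vip* had no reads in any culture. *Th*, which encodes the rate-limiting enzyme of dopamine synthesis, did not pass the filter in the cultures. In the cortex the list summed to 44.0 to 53.5 CPM in controls and 49.7 to 104 CPM in Phf6 -/Y libraries. The 104 CPM was replicate 1, and the other Phf6 -/Y libraries reached at most 60.5 CPM. The cortex median was not refitted without replicate 1. Of 15 subplate and claustrum markers, 12 were tested in the neurons with 10 positive and a median of 0.13, 13 in the cortex with 7 positive and a median of 0.04, and 0 were called in either tissue. Their sums were 203 to 233 CPM in control and 226 to 274 CPM in deleted cultures.

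The activity-regulated transcription factors were also compared between tissues. Among intact libraries 7 of 19 were called higher in neurons and 2 lower, with a median log2 fold change of 0.37. Over all genes 24.7% were called higher and 26.4% lower in that set. Among deleted libraries 15 of 19 were called higher and 2 lower, with a median of 0.83, beside 28% and 31.1% of all genes. The deleted set held more libraries, so these counts are not compared with each other. The median of all genes was -0.03 in each set. *Fos* was higher in neurons by a log2 fold change of 2.43 (SE 0.32) in intact and 3.64 (SE 0.30) in deleted libraries, and *Egr1* by 2.29 (SE 0.26) and 2.21 (SE 0.24). Among the partners, *Camk4*, a calcium-dependent kinase that activates CREB, was higher by 2.24 (SE 0.12) and 2.10 (SE 0.14). *Rxrg*, the retinoid X receptor gamma, was lower, with log2 fold changes of -3.75 (SE 0.37) and -3.82 (SE 0.37). All of these passed an FDR of 0.05 in edgeR's quasi-likelihood test.

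Some markers of other cell types were also higher in the deleted neurons. Of 7 markers of Cajal-Retzius cells, the early-born neurons of the marginal zone, all were positive and 2 were called, *Reln* with a log2 fold change of 0.81 (SE 0.06, FDR = 1.37e-05 from edgeR's quasi-likelihood test) and *Ndnf* with 1.24 (SE 0.16, FDR = 0.00383). Their summed CPM was 114 to 155 in control and 190 to 362 in deleted cultures, and it went from 117 to 200, from 114 to 190 and from 155 to 255 in litters 4, 5 and 6. None of the 7 was at 0 in a whole group. Of 8 interneuron markers *Sst* was called, with a log2 fold change of 0.92, while the list had a median of 0.02 with 6 of 8 positive and summed to 178 to 257 CPM in control and 229 to 300 CPM in deleted cultures. Of 6 choroid plexus markers 3 were tested and *Ttr* was called, with 2.84, the list summing to 2.28 to 3.97 CPM and 5.38 to 24.2 CPM. The 8 cortical excitatory neuron markers had 0 calls and a median of 0.05. In the cortex, where *Nr4a2* was slightly higher, the Cajal-Retzius markers *Lhx5* and *Calb2* were called and the list summed to 314 to 345 CPM in control and 363 to 459 CPM in Phf6 -/Y samples. The part of these cells in the values of the family was not tested.

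The genes most like each member over the 7 cultures were taken by the Pearson correlation of log2 CPM, chosen as the highest of 13904 genes and so without a test. For *Nr4a2* they were *Rnd1* (0.99), *Fam222b* (0.98), *Ndnf* (0.98), *A830018L16Rik* (0.98) and *Dubr* (0.98). For *Nr4a3* they included *Lonrf2* (0.98), *Nucb2* (0.98), *Arid5b* (0.97) and *Rab27a* (0.97). For *Nr4a1* they were *Adam15* (0.99), *Ppm1j* (0.98), *Eral1* (0.98), *Arhgef3* (0.98) and *Zbtb16* (0.97). No gene stood on more than 1 of these lists.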

How the data were processed

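Polyadenylated RNA was sequenced as stranded paired-end libraries. The authors aligned the reads to mm10 with Rsubread, counted them by gene with featureCounts (inbuilt RefSeq annotation) and deposited the counts without normalization. The strand setting of the counting is not given in the sources used here. All 15 per-sample files equalled their column of the series table. Removed were rows without a gene identifier (1029, holding 0.349% to 0.605% of counts), 875 identifiers not matched in RefSeq GRCm38, 835 pseudogenes, 1273 predicted genes, 35 rRNA genes and 4 genes off known chromosomes.

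Within each tissue, genes were filtered with filterByExpr and libraries scaled by TMM. Genotype was tested in edgeR 4.0.16 (robust quasi-likelihood F test) with the labelled litter as a term, at an FDR of 0.05 by Benjamini-Hochberg. The litter in the labels gives the pairing, and the replicate numbers of the titles do not mark litters. Tissues were compared without a litter term, since litters are nested in tissue. Deleted cortices of the same litter (litters 1 and 2) counted as separate samples there, so the p-values among deleted libraries ignore their shared litter. The alternatives were DESeq2 1.42.0, limma-trend (limma 3.58.1), library totals, no filter, no litter term, the replicate number as a block and each library left out.

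CPM use TMM within a tissue, correlations log2 CPM with a prior count of 2, and RPKM use TMM over all libraries and the deposited gene lengths. Named genes were the members, listed genes past the threshold in a genotype comparison, at most 4 listed genes by p in a tissue comparison, and the 5 (cultures) or 3 (cortices) genes most correlated with a member. The members, 5 pathway lists and 15 marker lists were chosen with earlier results of these data known. *Smim32* and *Hbb-bt* were not matched in the table. A few of the correlated genes are not reported here.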

Additional observations from a re-analysis of the deposited data

How the results depend on the processing

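Under DESeq2, limma-trend, library totals and no filter, each member kept its direction in every comparison, and each member tested kept its side of the threshold. Library totals in place of TMM moved the median log2 fold change of all genes between tissues from -0.03 to -0.17 among intact and from -0.03 to -0.19 among deleted libraries, and the share of called genes that were higher in neurons from 48.4% to 33.0% and from 47.4% to 30.6% (2640 genes higher among deleted libraries in place of 4039). Without the litter term, *Nr4a3* in the neurons was at a log2 fold change of 0.42 and no longer passed, and in the cortex *Nr4a1* turned to -0.0117 and *Nr4a3* to 0.21. With the replicate number of the titles as a replicate block in place of litter, *Nr4a3* in the neurons was at 0.40 with FDR = 0.377 from edgeR's quasi-likelihood test and *Nr4a2*, described without a test, at 0.77. The block changed no call of *Nr4a1*, none of *Nr4a2* in the cortex and none of *Nr4a3* in the other comparisons. The cause was not tested.

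The counts of genes over the whole table depended more on the setting. In the cortex, where 47 genes were called higher and 10 lower, DESeq2 called 156 and 43, no filter 95 and 19, no litter term 0 and 1, and the replicate block 5 lower. In the neurons, with 27 higher and 11 lower, DESeq2 called 47 higher, library totals 46 and 27, no filter 186 and 111, no litter term 0 and 1, and the replicate block 3 and 2. For the difference between tissues, with 1 and 1, DESeq2 called 2 and 10, no filter 2 and 3, and no litter term 0 and 0, with 340 higher and 438 lower at an unadjusted p under 0.05 in the litter fit of edgeR.

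With 1 library left out in turn, the cortex had 6 to 68 genes higher and 1 to 13 lower, the neurons 12 to 352 and 4 to 171, and the difference between tissues 0 to 1 and 0 to 3. *Nr4a1* in the cortex ranged from -0.104 to 0.0923, *Nr4a3* in the cortex from -0.51 to 0.34 and *Nr4a3* in the neurons from 0.42 to 0.59. *Nr4a1* in the neurons ranged from 0.0219 to 0.374. *Nr4a2* stayed at 0.82 to 0.95 in the neurons and at 0.08 to 0.16 in the cortex. *Nr4a1* had the fewest reads, 123 to 314 per library, which limits its precision.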

Other observations

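Across the 8 cortices the genes most like *Nr4a3* were *Ramp1* (Pearson correlation of log2 CPM 0.99), *Fosl2* (0.98) and *Epn2* (0.98). *Fosl2*, itself an activity-regulated transcription factor, shared the low value of *Nr4a3* in Phf6 -/Y replicate 1, at 8.50 CPM against a highest value of 42.4 CPM in that group. For *Nr4a2* the leading genes were *Rinl* (0.97), *Slc19a3* (0.96) and *Atp6v0b* (0.92), and for *Nr4a1* they included *Sema6c* (0.97) and *Gp1bb* (0.97). These genes were chosen as the highest of 14745 and carry no test, and none of them was among the genes most like the same member in the cultures.

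The listed midbrain dopaminergic genes differed between tissues in 1 direction. All 5 tested were lower in neurons than in cortex, both among intact libraries (median log2 fold change -1.65) and among deleted libraries (-1.32). Over all genes 26.4% and 31.1% were called lower in these sets. *Ddc*, which encodes aromatic amino acid decarboxylase, had -4.56 (SE 0.64, FDR = 6.15e-05 from edgeR's quasi-likelihood test) among intact libraries. Their sum was highest in Phf6 -/Y cortex replicate 1, at 104 CPM against 44.0 to 60.5 CPM in the other 7 cortices.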
